A study of Mus musculus with 12 samples.

Results

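The glucocorticoid receptor gene Nr3c1 and 7 genes known to respond to the receptor or to supply its hormone were followed in mouse thymus: Fkbp5, Tsc22d3, Klf9, Sgk1, Dusp1, Ddit4 and Hsd11b1. Every probe set that the platform gene table assigns to one of these 8 symbols was taken, which gave 24 of 45101 probe sets on the array (8 of 18194 genes that have a probe set of their own). Of these, 16 reached an average of 5 log2 units across the 12 arrays and were tested, and each of the 8 genes had at least 1 tested probe set. The other 8 lay below that level and are described as values at the end.

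The study measured RNA from whole thymus of mice aged 7 to 8 weeks on 12 one-colour Affymetrix arrays, with 3 biological replicates in each of 4 genotypes. The genotypes were XXsry males, XX females, XY-sry males and XY- females, so that the presence of Sry (male in both complements) and the sex chromosome complement were varied separately. In the widely used mouse model of this design, the Y chromosome has lost Sry, the testis-determining gene, and males carry Sry as a transgene on an autosome. The labels give neither strain, litter, time of day nor batch, and no hormone levels were analysed here. A difference between males and females here therefore joins the presence of Sry with everything that follows from having testes or ovaries. The deposited values are log2 values from RMA, a method that corrects background, makes the arrays' distributions alike and summarises the probes of a probe set, and all differences below are log2 differences unless a fold is named.

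The arrays carried the features their labels name. Sry lay between 6.74 and 6.95 in XXsry males, against 5.33 to 5.39 in XX females, and between 6.84 and 7.20 in XY-sry males, against 5.23 to 5.65 in XY- females. Xist, the RNA of the inactive X chromosome, was at 11.10 or above in every XX and XXsry array and at 4.19 or below in every XY- and XY-sry array. Markers of double-positive thymocytes, the main cell of the cortex, were high, with Rag1 averaging 11.85 and Cd8a 11.36. Array medians lay between 4.02 and 4.10. XY- replicate 2 stood apart from the other arrays, with a difference between the 3′ and 5′ actin probe sets of 0.51 against 0.66 to 0.83 elsewhere and a mean correlation with its own group of 0.986 against 0.989 to 0.995. Results for the 8 genes that rest on XY- females are therefore given with and without it, as values or as counts and ranges.

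Glucocorticoids are steroid hormones of the adrenal cortex. They enter cells and bind the glucocorticoid receptor, which leaves its chaperone complex, moves to the nucleus and either switches genes on from response elements in DNA or holds back genes driven by AP-1 and NF-kappaB. The thymus is a classic target: double-positive thymocytes die when hormone levels rise, and stress shrinks the organ. Fkbp5 encodes a co-chaperone that lowers the receptor's affinity for hormone, and Tsc22d3 encodes GILZ, a leucine zipper protein that mediates anti-inflammatory effects. Klf9 encodes a zinc finger transcription factor, Sgk1 a kinase of ion transport and survival signalling, Dusp1 a phosphatase that switches off MAP kinases, and Ddit4 an inhibitor of mTOR signalling. Hsd11b1 encodes the enzyme that regenerates active corticosterone from its inactive form inside cells.

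The windows around the transcription starts of 3 members are printed. Of these, 2 were higher in males and the third holds the one full response element found among the 7 members whose windows were used. Each is 300 bases, 250 before and 50 after a start, from RefSeq on build GRCm38.p6, read 5′ to 3′ along the gene. The motifs searched on both strands were the arm AGAACA, the full palindrome (that arm, any 3 bases and TGTTCT), its core ACANNNTGT, the cyclic AMP response element TGACGTCA and the E-box CACGTG. The core lies inside the palindrome, and so does an arm on each strand. Fkbp5 is shown at chr17:28486100-28486399 on the minus strand with its E-box in capitals, Klf9 at chr19:23140976-23141275 on the plus strand with no match to any of the 5 motifs, and Sgk1 at chr10:21993640-21993939 on the plus strand with the full palindrome in capitals.
Fkbp5: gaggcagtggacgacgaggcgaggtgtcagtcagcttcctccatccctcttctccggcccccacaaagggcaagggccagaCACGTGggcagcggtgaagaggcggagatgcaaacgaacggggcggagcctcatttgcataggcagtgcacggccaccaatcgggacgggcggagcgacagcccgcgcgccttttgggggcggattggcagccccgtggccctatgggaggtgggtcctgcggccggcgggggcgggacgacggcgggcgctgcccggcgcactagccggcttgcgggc
Klf9: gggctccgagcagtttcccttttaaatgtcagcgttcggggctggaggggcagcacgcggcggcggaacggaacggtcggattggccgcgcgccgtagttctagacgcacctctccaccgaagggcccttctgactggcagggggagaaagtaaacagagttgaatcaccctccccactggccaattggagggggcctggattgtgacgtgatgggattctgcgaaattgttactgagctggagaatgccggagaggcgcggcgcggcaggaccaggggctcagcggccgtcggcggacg
Sgk1: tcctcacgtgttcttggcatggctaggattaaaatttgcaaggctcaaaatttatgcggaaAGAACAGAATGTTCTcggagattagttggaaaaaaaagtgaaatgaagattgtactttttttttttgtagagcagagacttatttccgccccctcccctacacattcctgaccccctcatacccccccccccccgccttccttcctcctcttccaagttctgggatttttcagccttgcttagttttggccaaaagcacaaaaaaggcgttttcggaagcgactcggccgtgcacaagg
The palindrome in the Sgk1 window begins 189 bases upstream of the start, and the same window holds an E-box 246 bases upstream that is overlapped by a further arm, both left in lower case. The palindrome was found in 3 of 32851 windows of the same length, 0.00913%, while the core was found in 6.85%, the arm in 19%, the cyclic AMP response element in 1.79% and the E-box in 7.15%. Windows were used for 7 of the 8 members, Nr3c1 being left out. There were 14 windows in all, and 6 of these 7 members had no core in any window. A match describes these letters alone. A window without one says nothing about elements elsewhere in the gene.

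In males, 3 of the 8 genes were higher than in females: Fkbp5 by about 0.4, Klf9 by 0.32 and the receptor gene Nr3c1 by 0.19 in 1 of its 4 tested probe sets. No member was lower. Sgk1, Dusp1, Ddit4, Hsd11b1 and Tsc22d3 did not pass the test. Of the 16 tested probe sets, 4 were higher in males and 0 lower at a limma adjusted p under 0.05, where 3.95% of all 17925 tested probe sets were higher and 6.56% were called in either direction. The median of the 16 was 0.10 (6 male and 6 female arrays), against 0.02 over all tested probe sets. In 4 of the 16, every male array lay above every female array, a pattern seen in 2.28% of all tested probe sets. Since several probe sets measure the same gene, the calls stand for 3 genes and not 4. In bulk tissue, fewer cells of a type and less RNA per cell cannot be told apart.

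**Figure D1:**
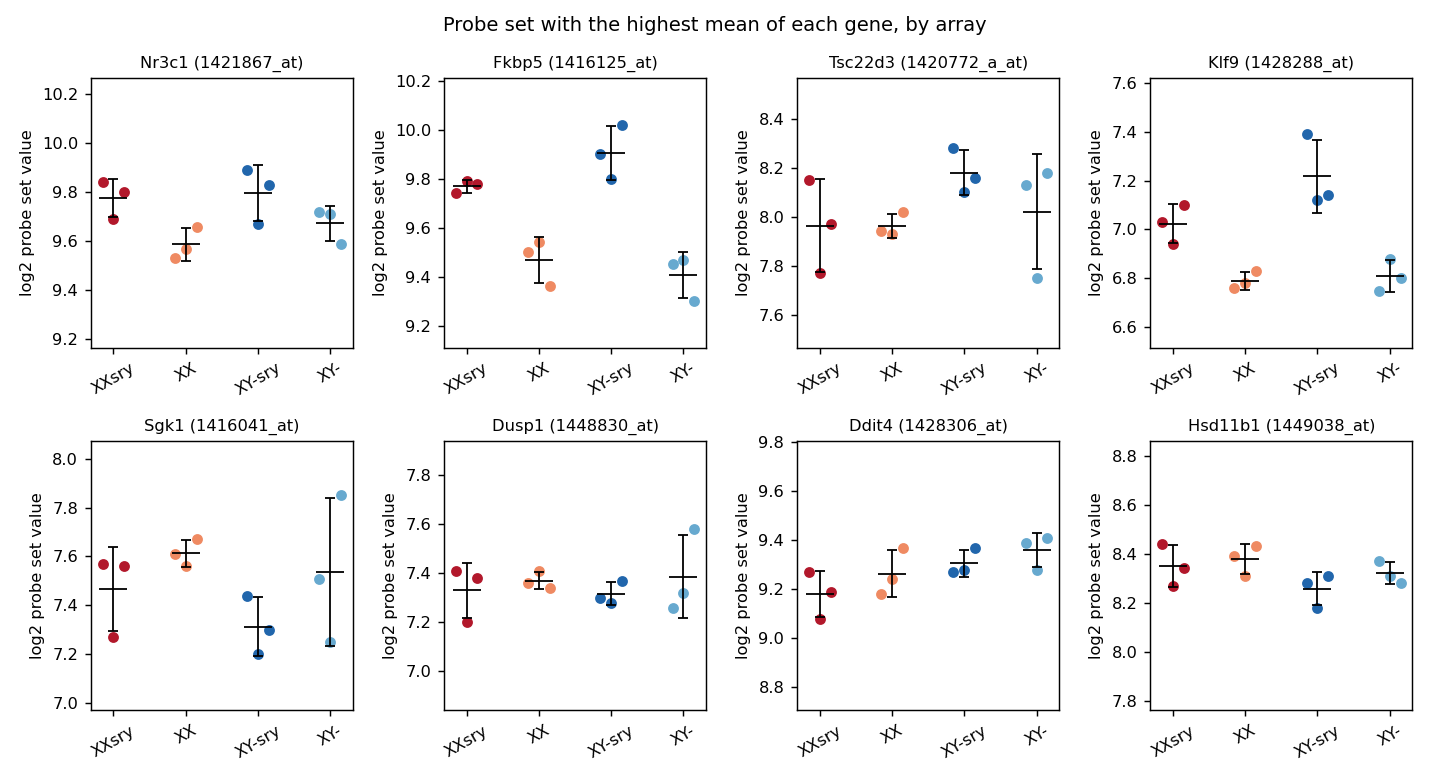
Log2 values of the probe set with the highest mean for each of the 8 genes in XXsry males, XX females, XY-sry males and XY- females. Points are single arrays, and bars give the mean and SD of 3. Each vertical axis spans 1.1 log2 units at its own height. For Fkbp5 and Klf9 every male array lies above every female array, from 9.74 against 9.54 and from 6.94 against 6.88, while males and females overlap for the other 6 genes.

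The receptor gene Nr3c1 lies on chromosome 18 and was measured by 6 probe sets, of which 4 were tested. The probe set with the highest mean, 1421867_at, read 9.84, 9.69 and 9.80 in XXsry males, against 9.53, 9.57 and 9.66 in XX females. It read 9.89, 9.67 and 9.83 in XY-sry males, against 9.72, 9.71 and 9.59 in XY- females. The male arrays lay above the female arrays in XX, but 1 XY-sry array fell among the XY- arrays. Averaged over complement, the difference was 0.16 ± 0.050 (SE; 6 arrays a side; limma adjusted p = 0.0804), which did not pass, nor did the 0.17 found without XY- replicate 2 (limma adjusted p = 0.0697). Among the alternatives, it passed only with trend and robust settings (limma adjusted p = 0.0422) and without XY-sry replicate 2 (0.19, limma adjusted p = 0.0425).

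Nr3c1 probe set 1460303_at read 8.92, 8.79 and 8.80 in XXsry males, against 8.62, 8.68 and 8.66 in XX females. It read 8.96, 8.83 and 8.88 in XY-sry males, against 8.71, 8.73 and 8.63 in XY- females. Every male array lay above every female array, and the averaged difference was 0.19 ± 0.040, a 1.14-fold higher value (limma adjusted p = 0.0194). Without XY- replicate 2 it was 0.20 (limma adjusted p = 0.0163). It lost the threshold without XX replicate 1 (limma adjusted p = 0.0508) and with no filter on low values (limma adjusted p = 0.0633). The remaining tested Nr3c1 probe sets gave 0.10 ± 0.072 for 1421866_at and 0.01 ± 0.068 for 1457635_s_at (limma adjusted p = 0.437 and 0.966), and 0.11 and -0.04 with XY- replicate 2 left out (limma adjusted p = 0.381 and 0.734). With all arrays, the 4 probe sets thus ranged from 0.01 to 0.19 for a single gene, and 1 passed.

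Fkbp5, on chromosome 17, gave the largest difference of the 8 genes, and both of its tested probe sets passed. Probe set 1416125_at read 9.74, 9.79 and 9.78 in XXsry males, against 9.50, 9.54 and 9.36 in XX females. It read 9.90, 9.80 and 10.02 in XY-sry males, against 9.45, 9.47 and 9.30 in XY- females. The lowest male array, at 9.74, lay above the highest female array, at 9.54. The group means were 9.91 ± 0.110 in XY-sry males, 9.77 ± 0.026 in XXsry males, 9.47 ± 0.095 in XX females and 9.41 ± 0.093 in XY- females (SD, n = 3 each). In that order, the arrays of XX and XY- females overlapped, while the lowest XY-sry array (9.80) lay just above the highest XXsry array (9.79).

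The second Fkbp5 probe set, 1448231_at, read 8.67, 8.57 and 8.69 in XXsry males, against 8.39, 8.35 and 8.26 in XX females. It read 8.80, 8.71 and 8.82 in XY-sry males, against 8.24, 8.31 and 8.24 in XY- females. Again no male array overlapped the females. The averaged differences were 0.40 ± 0.051 for 1416125_at and 0.41 ± 0.040 for 1448231_at, 1.32-fold and 1.33-fold higher values (limma adjusted p = 0.00151 and 0.00029). Without XY- replicate 2 they were 0.42 and 0.42 (limma adjusted p = 0.00177 and 0.000356).

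Klf9, on chromosome 19, had 7 probe sets, of which 3 were tested and 1 passed. Probe set 1428288_at read 7.03, 6.94 and 7.10 in XXsry males, against 6.76, 6.78 and 6.83 in XX females. It read 7.39, 7.12 and 7.14 in XY-sry males, against 6.75, 6.88 and 6.80 in XY- females. Male and female arrays did not overlap, and the averaged difference was 0.32 ± 0.053, a 1.25-fold higher value (limma adjusted p = 0.00651). It was 0.34 without XY- replicate 2 (limma adjusted p = 0.00643).

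The other tested Klf9 probe sets were less steady. Probe set 1456341_a_at read 6.75, 6.72 and 6.72 in XXsry males, against 6.50, 6.31 and 6.48 in XX females, and 6.78, 6.51 and 7.40 in XY-sry males, against 6.50, 6.57 and 6.50 in XY- females. Its XY-sry arrays spread more widely than those of any other group, and the averaged difference of 0.34 ± 0.116 did not pass (limma adjusted p = 0.102). Without XY-sry replicate 2 it was 0.43 (limma adjusted p = 0.0257). Probe set 1428289_at differed by 0.10 ± 0.092 (limma adjusted p = 0.565), with opposite signs in the complements: 0.28 ± 0.130 in XX and -0.09 ± 0.130 in XY- (limma adjusted p = 0.418 and 0.703). Leaving out XY- replicate 2 gave 0.35 and 0.09 for these probe sets, and neither passed.

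**Figure D2:**
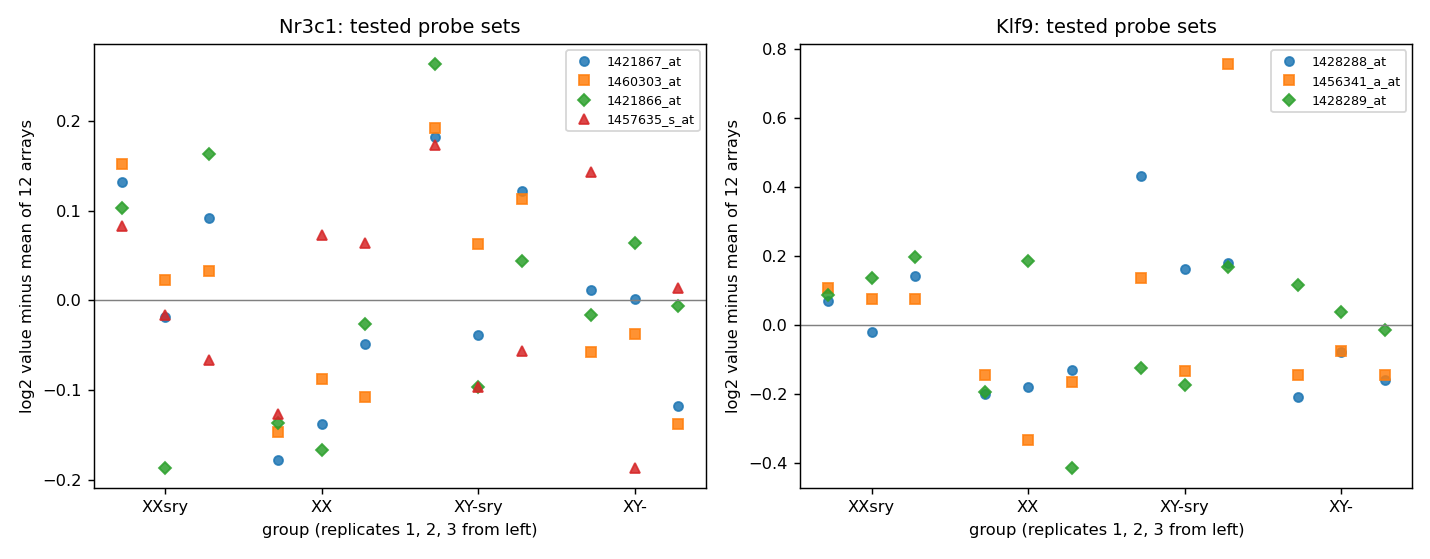
Log2 values of each tested probe set of Nr3c1 and Klf9, as the distance from its own mean over 12 arrays, with replicates 1 to 3 of each group from left to right. For Nr3c1, 1460303_at separated males from females while 1457635_s_at did not. For Klf9, 1428288_at separated them while 1428289_at did not.

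Tsc22d3, the GILZ gene on the X chromosome, did not pass in any of its 3 tested probe sets. Probe set 1420772_a_at read 8.15, 7.77 and 7.97 in XXsry males, against 7.94, 7.93 and 8.02 in XX females. It read 8.28, 8.10 and 8.16 in XY-sry males, against 8.13, 7.75 and 8.18 in XY- females. The groups overlapped, and the averaged difference was 0.08 ± 0.082, with a 95% interval of -0.10 to 0.26 (limma adjusted p = 0.588). The other tested Tsc22d3 probe sets gave 0.13 ± 0.115 for 1425281_a_at and 0.05 ± 0.091 for 1425557_x_at (limma adjusted p = 0.542 and 0.799). The 3 probe sets gave 0.01, 0.03 and 0.00 when XY- replicate 2 was left out.

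Sgk1 was the member with the lowest averaged difference. It read 7.57, 7.27 and 7.56 in XXsry males, against 7.61, 7.56 and 7.67 in XX females. It read 7.44, 7.20 and 7.30 in XY-sry males, against 7.51, 7.25 and 7.85 in XY- females. The XY- arrays spanned all but 1 of the XY-sry arrays, and the averaged difference of -0.19 ± 0.093 had an interval of -0.39 to 0.02 (limma adjusted p = 0.241). It was -0.26 when XY- replicate 2 was left out (limma adjusted p = 0.0615).

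Dusp1 read 7.41, 7.20 and 7.38 in XXsry males, against 7.36, 7.41 and 7.34 in XX females, and 7.30, 7.28 and 7.37 in XY-sry males, against 7.26, 7.32 and 7.58 in XY- females. Ddit4 read 9.27, 9.08 and 9.19 in XXsry males, against 9.18, 9.24 and 9.37 in XX females, and 9.27, 9.28 and 9.37 in XY-sry males, against 9.39, 9.28 and 9.41 in XY- females. Hsd11b1 read 8.44, 8.27 and 8.34 in XXsry males, against 8.39, 8.31 and 8.43 in XX females, and 8.28, 8.18 and 8.31 in XY-sry males, against 8.37, 8.31 and 8.28 in XY- females. The groups overlapped for each of these 3 genes. The averaged differences were -0.06 ± 0.059 for Dusp1, -0.07 ± 0.048 for Ddit4 and -0.05 ± 0.043 for Hsd11b1 (limma adjusted p = 0.606, 0.415 and 0.560). Their 95% intervals ran from -0.18 to 0.07, from -0.17 to 0.04 and from -0.14 to 0.05. Leaving out XY- replicate 2 gave -0.07, -0.09 and -0.05, and none passed.

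Within each complement, both Fkbp5 probe sets and Klf9 1428288_at were on the higher side in males, though not all passed. In XY-, 4 of the 16 probe sets passed, all higher in XY-sry males, where 4.27% of all tested probe sets were higher and 8.64% were called in either direction. Fkbp5 differed by 0.50 ± 0.072 and 0.51 ± 0.057 (limma adjusted p = 0.00415 and 0.00152), Klf9 1428288_at by 0.41 ± 0.075 (limma adjusted p = 0.0101) and Nr3c1 1460303_at by 0.20 ± 0.057 (limma adjusted p = 0.0491). Without XY- replicate 2 these were 0.53, 0.54, 0.44 and 0.22 (limma adjusted p = 0.00657, 0.00252, 0.0147 and 0.0541), so the Nr3c1 call was lost. It held in 4 of 20 settings, and it was also lost without any 1 of the 3 XX arrays, the 3 XY-sry arrays, XXsry replicates 2 and 3, and XY- replicates 1 and 3 (limma adjusted p up to 0.163). The actin difference was also higher in XY-sry males, at 0.83, 0.74 and 0.80, than in XY- females, at 0.69, 0.51 and 0.68. With that difference as a covariate, the call of Fkbp5 1448231_at was left and the others were lost, at 0.56 for Fkbp5 1416125_at, 0.42 for Klf9 and 0.23 for Nr3c1 (limma adjusted p = 0.0611, 0.0995 and 0.179). With only the XY-sry and XY- arrays in the fit, the same 3 calls were lost at limma adjusted p of 0.0584, 0.0768 and 0.143.

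In XX, 1 of the 16 probe sets passed, Fkbp5 1448231_at, at 0.31 ± 0.057 (limma adjusted p = 0.0325). Of all tested probe sets, 0.391% were higher in XXsry males and 0.742% were called in either direction. This call held in 8 of 20 settings. It was lost without any 1 of the 3 XXsry arrays, the 3 XX arrays, XY-sry replicate 1 and XY- replicate 1 (limma adjusted p up to 0.138). The other Fkbp5 probe set gave 0.30 ± 0.072, Klf9 1428288_at 0.23 ± 0.075 and Nr3c1 1460303_at 0.18 ± 0.057, and none of these passed (limma adjusted p = 0.0955, 0.225 and 0.209). In 6 of the 16 every XXsry array lay above every XX array, against 10.8% of all tested probe sets. In XY- this held for 4 of the 16, against 18%.

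**Figure D3:**
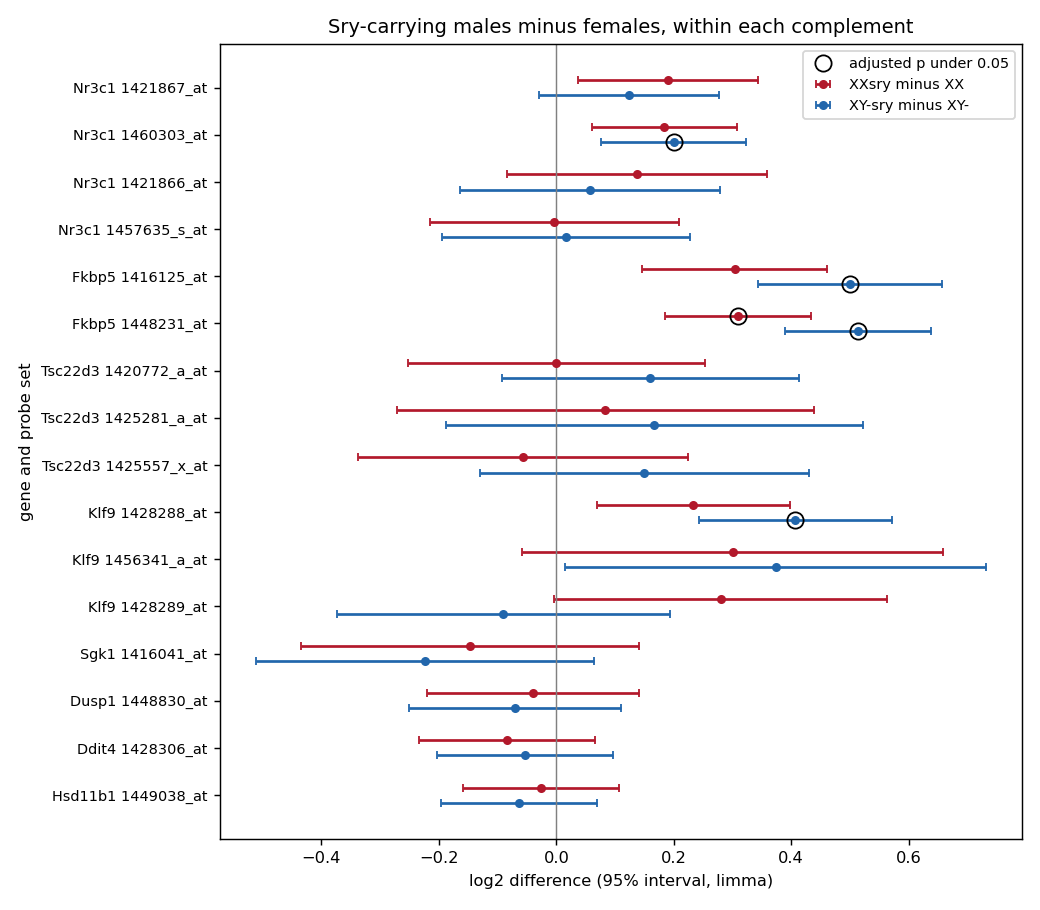
Log2 differences of males minus females for the 16 tested probe sets, XXsry minus XX and XY-sry minus XY-, with 95% intervals from limma. Rings mark an adjusted p under 0.05. The ringed points are 1 Fkbp5 probe set in XX, and in XY- both Fkbp5 probe sets with 1 probe set each of Klf9 and Nr3c1.

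The size of the male-female difference was compared between the complements directly, as the difference in XX minus that in XY-. None of the 16 probe sets passed (limma; 1 had an unadjusted p under 0.05), where 1.29% of all tested probe sets passed and 13.4% had an unadjusted p under 0.05. The Fkbp5 probe sets gave -0.20 ± 0.101 and -0.20 ± 0.080 (limma adjusted p = 0.439 and 0.287), with intervals of -0.42 to 0.03 and -0.38 to -0.03. Klf9 1428288_at gave -0.17 ± 0.106, while Klf9 1428289_at gave 0.37 ± 0.184, the largest of the 16 and opposite in sign (limma adjusted p = 0.527 and 0.416). Leaving out XY- replicate 2, the 16 ranged from -0.23 to 0.38 and 0 passed (limma; smallest adjusted p = 0.275). A difference between complements in how far these genes stood higher in males was therefore not shown.

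The sex chromosome complement itself, XX and XXsry minus XY- and XY-sry, gave 0 calls among the 16 (limma; 1 unadjusted p under 0.05), where 0.0893% of all tested probe sets passed and 4.25% had an unadjusted p under 0.05. The differences ranged from -0.14 to 0.12, and the 95% interval of every one of the 16 lay within 0.5 of 0. For the averaged male-female difference, 14 of the 16 intervals also met this bound, so it does not set the comparisons apart. The one under 0.05 unadjusted was that of Ddit4, at -0.11 ± 0.048 (limma adjusted p = 0.998). For the receptor gene, Nr3c1 1421867_at differed by -0.05 ± 0.050 and 1460303_at by -0.05 ± 0.040 (limma adjusted p = 0.998 for both). X-linked Tsc22d3 did not pass either. Leaving out XY- replicate 2, the 16 ranged from -0.21 to 0.07, with Tsc22d3 lowest, and 0 passed (limma; smallest adjusted p = 0.795).

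In both male groups replicate 2 read low for most members. XXsry replicate 2 was the lowest of its group for 7 of the 8 leading probe sets, Fkbp5 being the exception, and XY-sry replicate 2 was the lowest for 7 of 8, Ddit4 being the exception.

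Outside the members, tested genes that work with the receptor did not pass. The co-chaperone gene Fkbp5, a member, passed in both of its tested probe sets and was not counted in the lists that follow. Of 9 tested chaperones and co-chaperones, 0 passed (limma; 2 had an unadjusted p under 0.05) and the median male-female difference was 0.08, with the Hsp90 gene Hsp90aa1 at 0.14 ± 0.126 and the Hsp70-family gene Hspa8 at 0.08 ± 0.116 (limma adjusted p = 0.541 and 0.740). Nr3c2, the related mineralocorticoid receptor gene, averaged 2.95 and was not tested. Of 11 tested coregulators, 0 passed (limma; 2 had an unadjusted p under 0.05), with a median of 0.02. In the list of steroid synthesis and inactivation, 16 of 20 genes had a probe set of their own. Of these 16, 3 lay above the filter, and 0 of the 3 passed (limma; 1 had an unadjusted p under 0.05). Cyp11a1, which starts steroid synthesis, and Cyp11b1, which makes corticosterone, averaged 4.06 and 2.69, below the filter.

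Most other genes that glucocorticoids induce did not pass, and those that did went in both directions. Of 31 tested, 1 was higher in males, 3 were lower and 27 did not pass, and the median was -0.03. Of all tested probe sets, 3.95% were higher and 6.56% were called in either direction. The metallothionein gene Mt1 was higher by 0.31 ± 0.064 (limma adjusted p = 0.0178). The cell cycle inhibitor gene Cdkn1a was lower at -0.16 ± 0.037, the stress gene Sesn1 at -0.25 ± 0.063 and the acid-sensing receptor gene Gpr65 at -0.21 ± 0.055 (limma adjusted p = 0.0284, 0.0399 and 0.0439). The count of 4 was between 1 and 5 in the other settings, and it was 1 without XXsry replicate 2 or XXsry replicate 3. It was 2 without any 1 of XXsry replicate 1, the 3 XX arrays, the 3 XY-sry arrays and XY- replicate 1.

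Among genes that glucocorticoids repress, 4 of 10 tested were lower in males and 0 higher, with a median of -0.18 against 0.02 over all tested probe sets. Of all 17925 tested probe sets, 468 were lower and 6.56% were called in either direction. Cxcl10 and Cxcl9, interferon-induced chemokine genes, were lower at -0.89 ± 0.078 and -0.75 ± 0.126 (limma adjusted p = 0.000117 and 0.00707). Ptgs2, the inducible cyclooxygenase gene, was lower at -0.78 ± 0.101, and the chemokine gene Ccl5 at -0.50 ± 0.083 (limma adjusted p = 0.00167 and 0.00651). Cxcl10 and Ptgs2 also passed within XX, and all 4 passed within XY-. Without XY- replicate 2, the count for the averaged comparison was 5. The count of 2 in XX was 1 without any 1 of the 3 XX arrays, XXsry replicates 2 and 3, and XY- replicate 1, and the count of 4 in XY- was 0 with the actin covariate and 1 with only the groups compared.

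Among 12 tested regulators of thymocyte apoptosis, the survival gene Bcl2 was higher in males at 0.29 ± 0.063 and the survival gene Mcl1 was lower at -0.22 ± 0.045 (limma adjusted p = 0.0232 and 0.0178). The other 10 did not pass, where 6.56% of all tested probe sets were called in either direction. Bcl2l11, which encodes the death protein BIM, differed by -0.09 ± 0.043 (limma adjusted p = 0.230). The count of 2 was 1 without any 1 of XX replicates 1 and 3, XY-sry replicates 1 and 3, and XXsry replicate 3, and with no filter or with the actin covariate.

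Programmes that respond to handling, time of day or oxygen were set beside these, where 6.56% of all tested probe sets were called in either direction. Of 16 immediate early genes, 4 were lower in males and 0 higher (median -0.15): Jun at -0.52 ± 0.084, Btg2 at -0.52 ± 0.100, Nr4a1 at -0.27 ± 0.052 and Junb at -0.24 ± 0.050 (limma adjusted p = 0.00533, 0.014, 0.0134 and 0.0215). This count was 7 without XY- replicate 2. Within XX 0 of the 16 passed (median -0.13), with Junb at 0.01 and Btg2 at -0.03, and within XY- 4 were lower (median -0.17). An unadjusted p under 0.05 (limma) was reached by 8 of the 16 in XX and 6 in XY-. In each complement 3 of the 16 were positive. Of 10 circadian clock genes, Dbp was higher at 0.32 ± 0.060, Cry2 higher at 0.24 ± 0.057 and Arntl lower at -0.16 ± 0.041 (limma adjusted p = 0.013, 0.0313 and 0.0362). The count of 3 was 1 without XX replicate 1 or 3, XY-sry replicate 3, XXsry replicate 2 or 3, or XY- replicate 1, and with no filter. Of 11 hypoxia and amino acid stress genes, 1 passed, the vasodilator peptide gene Adm at -0.35 ± 0.091 (limma adjusted p = 0.0464). Adm did not pass without any 1 of 10 of the 12 arrays, the exceptions being XY- replicates 2 and 3. Their part in the results for the 8 genes was not tested.

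**Figure D4:**
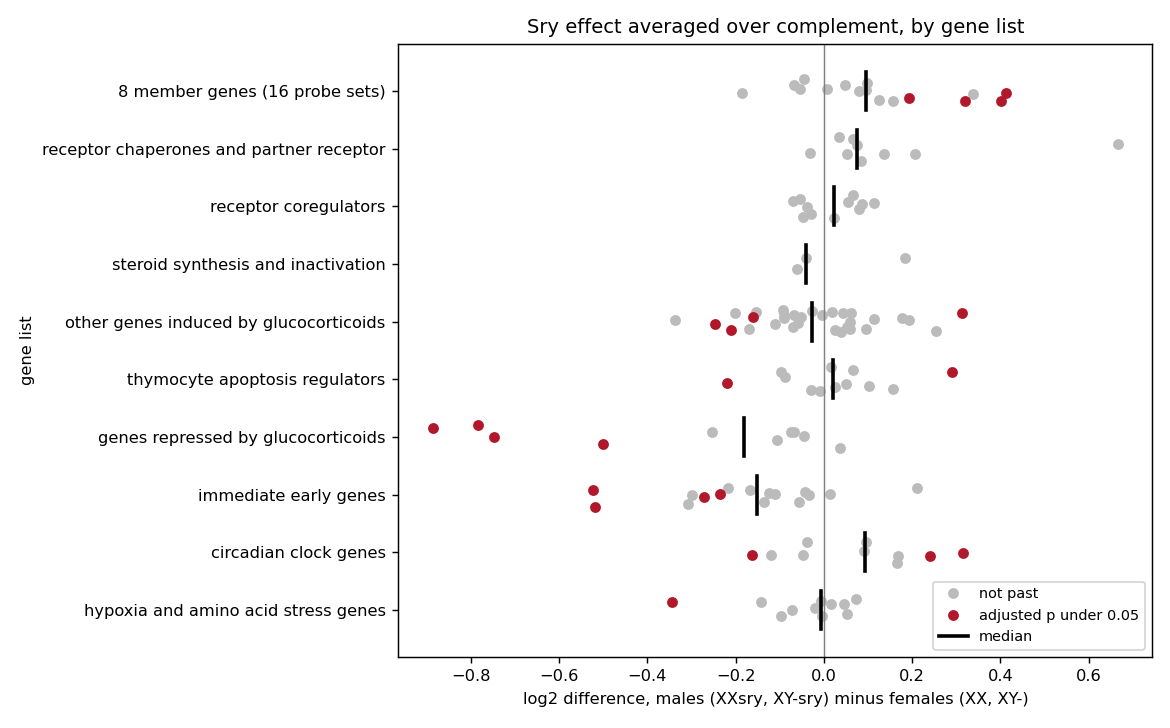
Log2 differences of males minus females, averaged over complement. Points are the 16 tested probe sets of the 8 members and each tested gene of the gene lists (1 probe set a gene). Red points passed at an adjusted p under 0.05, grey points did not, and bars give each list's median. The list of repressed genes lies mostly left of 0, with a median of -0.18.

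Markers of some cell types also differed between males and females, where 6.56% of all tested probe sets were called in either direction. Of 9 tested markers of mature single-positive thymocytes, 8 were lower in males. Their mean level, centred on all arrays, lay between -0.21 and -0.12 in XXsry males, against 0.14 to 0.24 in XX females, and between -0.25 and -0.19 in XY-sry males, against 0.09 to 0.36 in XY- females. The count of 8 was 5 without any 1 of XX replicates 1 and 3 and XXsry replicates 2 and 3. The double-positive list had 1 of 11 lower (Rag2), and 0 without any 1 of XY-sry replicate 1 and XXsry replicates 2 and 3, but 2 without XY- replicate 1 or 2. B cell markers were lower in 4 of 6 tested, and 3 of 10 cortical epithelium markers (Il7, Dll4 and Cxcl12) were higher. The cortical list had a median of 0.15 with 8 of the 10 positive. Ctsl and Ly75 went the other way, with Ctsl at 12.26 to 12.36 in males against 12.36 to 12.47 in females. Of 9 fibroblast and vessel markers, 3 were higher (Fn1, Dcn and Lum), with a median of 0.01 and 6 of the 9 positive. Within XY- 2 of these 9 were higher and 1 lower. Without XY- replicate 2, the averaged comparison had 3 of them higher and 1 lower. With the actin covariate, 0 cortical epithelium and 2 B cell markers passed, and 2 B cell markers passed without XXsry replicate 3. For medullary epithelium, dendritic cells and macrophages, neutrophils, fat and red cells, limma called 0 of 8, 0 of 11, 0 of 6, 0 of 5 and 0 of 1, while 3, 4, 5, 0 and 0 had an unadjusted p under 0.05. The neutrophil list had a median of -1.06 with 0 of 6 positive, though its mean levels overlapped between males and females within each complement. The dendritic cell and macrophage list had a median of -0.145 with 0 of 11 positive. Without XY- replicate 2, 3 dendritic cell and macrophage and 2 neutrophil markers passed. Without XXsry replicate 3, 2 neutrophil markers passed. For medullary epithelium, 2 passed without XY-sry replicate 3 and 1 without XXsry replicate 1 or XY- replicate 1. Both tested parathyroid genes, Pth and Chga, were higher in males. The part of these cell types in the results for the 8 genes was not tested.

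The genes whose values followed Fkbp5 1416125_at most closely over the 12 arrays, by Pearson's r, were Cdk6 (0.987), Hdgf (0.982), G3bp1 (0.952), Nt5dc2 (0.952) and Isl1 (0.950). For Nr3c1 1421867_at they were Mkln1 (0.963), N4bp2 (0.935), Vmn2r84 (0.924), Sel1l (0.913) and Stag2 (0.901). These describe 12 arrays that share the differences between the 4 groups.

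The 8 probe sets below the filter averaged between 2.04 and 4.87. They were 4 of Klf9, 2 of Nr3c1 and 1 each of Fkbp5 and Tsc22d3. In a fit without the filter none passed in any of the 5 comparisons, and their averaged male-female differences lay between -0.09 and 0.09 (limma; smallest adjusted p = 0.530, smallest unadjusted p = 0.155).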

How the data were processed

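Thymus RNA from 12 mice was measured on one-colour Affymetrix arrays, with biotin-labelled cRNA made from 10 µg of total RNA per the labels. The log2 probe set values were deposited by the authors, who made them with RMA per the submitters' processing notes, where no version is named. RMA forces similar array distributions, so a change shared by most genes would be lost, and it compresses differences of dim probe sets. The number of arrays limits the precision.

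After removal of 64 control probe sets, the 17925 of 45101 that averaged 5 log2 units or more were fitted with limma 3.58.1 in R 4.3.3 (lmFit and eBayes, 4 group means, 8 residual and 3.71 prior degrees of freedom). P-values were adjusted by Benjamini-Hochberg over all of them, with a call under 0.05. The 5 comparisons were males minus females averaged over complement, in XX and in XY-, XX minus XY- averaged over Sry, and the interaction. The fit was tested on simulated data. Gene symbols came from the platform gene table (34958 probe sets with 1 symbol, 932 with several, 9211 with none). Of those with 1 symbol, 34754 matched RefSeq genes of GRCm38.p6, whose promoter table gave the windows. Figures were drawn with matplotlib 3.10.9.

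All 8 members were named whatever their values, led by the probe set with the highest mean. List genes used 1 probe set a gene, and those past the threshold for a male-female difference, up to 6 with the smallest p for each comparison, or otherwise those with the highest means, could be named. Hspa8 and Hsp90aa1 are the latter kind. Nr3c2, Cyp11a1, Cyp11b1, Bcl2l11, Rag1 and Cd8a were named after their values were seen. The members and lists were chosen with earlier results of these data known, so no list is independent evidence. Replicate numbers in the titles were checked for pairing by the correlation of deviations from the group means between arrays of different groups. Over 18 pairs with the same number it lay between -0.08 and 0.31 (median 0.04). Over 36 pairs with different numbers it lay between -0.33 and 0.25 (median -0.02). Pairs of replicates 2 lay between 0.02 and 0.31. The arrays were not taken as pairs, and whether those with the same number were handled together is not known. Alternatives were no filter, a stricter filter (mean of at least 6), median centring, quantile normalization, trend and robust settings, the replicate number as a block, the actin difference as a covariate, only the groups compared, and each array left out in turn. Their use on list counts, and on the interaction of Junb and Btg2, was added after the data were seen.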

Additional observations from a re-analysis of the deposited data

Results flagged for a closer look

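Junb and Btg2, immediate early genes set beside the 8 members, differed between males and females to a different extent in the 2 complements by the test of the difference itself (XX minus XY-). Junb gave 0.50 ± 0.101 (limma adjusted p = 0.0405), from 0.01 in XX and -0.48 in XY-. Btg2 gave 0.98 ± 0.200 (limma adjusted p = 0.0405), from -0.03 in XX and -1.01 in XY-. Each call was lost in 12 of 19 alternatives, with limma adjusted p up to 0.273 for Junb and 0.344 for Btg2 (each with the actin covariate). The Junb call was lost without any 1 of 9 of the 12 arrays, the exceptions being XY-sry replicate 2 and XY- replicates 2 and 3, and the Btg2 call without any 1 of 10, the exceptions being XY-sry replicate 2 and XY- replicate 3. Over the 12 arrays left out in turn, the values lay between 0.42 and 0.56 for Junb and between 0.86 and 1.16 for Btg2. These alternatives were run for both genes after the data were seen. For the member Dusp1, which is also induced at once by many stimuli, the same difference was 0.03 ± 0.117 (limma adjusted p = 0.945).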

How the results depend on the processing

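For the male-female difference averaged over complement, both Fkbp5 probe sets and Klf9 1428288_at passed in 19 of 19 alternatives, with limma adjusted p up to 0.00724, 0.00233 and 0.0294, and Nr3c1 1460303_at passed in 17 of 19. Over all probe sets, the count of 1176 was 692 with no filter and 522 to 1744 with 1 array left out, and the members' count of 4 was 3 to 6. In XX the count of 133 was 216 with only the groups compared and 37 to 228 with 1 array left out. The members' count of 1 in XX was 0 with no filter, with median centring, with the replicate block and with only the groups compared, 2 with trend and robust settings, and 0 to 1 with 1 array left out. In XY- the count of 1549 was 54 with the actin covariate, 72 with only the groups compared and 539 to 1525 with 1 array left out, and the members' count of 4 was 1 with the actin covariate, 1 with only the groups compared and 3 to 4 with 1 array left out. For the complement the count of 16 was 26 with no filter and 13 to 21 with 1 array left out, and for the interaction the count of 232 was 377 with the replicate block, 1 with the actin covariate and 0 to 451 with 1 array left out. The members' counts were 0 throughout for both. Fits with only the groups compared have fewer arrays for the spread; the cause of the other shifts was not tested. Median centring moved the XY- split from 766 higher and 783 lower to 1273 and 685. The averaged split was 757 and 384 with median centring and 394 and 471 with the actin covariate, against 708 and 468. The replicate block lost 2 member calls, Fkbp5 1448231_at in XX (limma adjusted p = 0.0589) and Nr3c1 1460303_at in XY- (limma adjusted p = 0.0564), gained none, and changed no other member call.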
